A study of Saccharomyces cerevisiae with 46 samples.

Results

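The regions described are meiotic double-strand break hotspots around the centromeres of 10 budding yeast chromosomes. A hotspot was a stretch in which the mean CC-seq signal of 4 libraries, those of *rad50S* with and without *hop1-loop2*, smoothed with a Hann window reaching 100 bp to each side, exceeded 0.2 hits per 1000000 (HpM) per bp for at least 25 bp, with gaps under 200 bp merged. Of 3569 such hotspots, 278 had their centre within 50 kb of a centromere position on chromosome II, IV, V, VII, VIII, IX, X, XI, XII or XIII. The positions (II 254, IV 464, V 174, VII 504, VIII 107, IX 351, X 451, XI 454, XII 154 and XIII 254 kb) were read from a drawn map and are approximate. Sums over the set, per distance step and per centromere were also computed with every position moved by 5 kb. So were the shares of hotspots and tiles called. All other values rest on the positions as given, among them those per side, of nearest hotspots and relative to distant hotspots. Another 2162 hotspots lay farther out on the same 10 chromosomes, and 1129 lay on the other 6 chromosomes, whose own centromere-near hotspots are not among the 278.

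CC-seq maps the DNA ends to which Spo11, the enzyme that makes meiotic breaks, stays covalently attached. Diploid SK1 cells were sampled 6 h after transfer to sporulation medium at 30 °C, and all 3 genotypes carried *rad50S*, an allele that leaves Spo11 on the ends and blocks further processing. The groups were *rad50S* alone, *rad50S* with *hop1-loop2*, and *rad50S* with both *hop1-loop2* and *pch2*, written as *rad50S*, *hop1-loop2* and *hop1-loop2 pch2* from here on. Each had 2 libraries. The study describes the replicates of *rad50S* and *hop1-loop2* as biological and independent. For *hop1-loop2 pch2* no source used here says whether the 2 libraries came from separate cultures, and the spread between them may be technical. The p-values of its comparisons use a spread shared by all 6 libraries and so measure only spread between libraries. Groups follow the sample titles, because the genotype entries of these libraries name other alleles. The strains also differed at marker genes, with *TRP1* and *URA3* alleles among those listed for some of them, and where these lie in the assembly was not determined. The strain number given for the *hop1-loop2* libraries is not in the strain list of the study, so its markers are not known here. HpM is a share of the hits within a library, so a value here says how breaks were distributed and nothing about how many breaks a cell made.

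Centromeres and their flanks are normally poor in meiotic breaks, and crossovers there can disturb chromosome segregation. Hop1, a HORMA-domain protein of the meiotic chromosome axis, promotes break formation together with Red1 and the Rec8 cohesin, and Rec8 is abundant around centromeres. The chromatin-binding region of Hop1 contacts nucleosomes, and *hop1-loop2* changes basic residues of a loop through which it does so. Pch2 is an AAA+ ATPase that removes Hop1 from chromosomes. The comparison asks how the break map around centromeres differs when the contact of Hop1 with nucleosomes is disrupted and when Pch2 is missing as well.

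The libraries held 1026669 to 7985420 hits. Hotspots took 87.9 to 89.4% of the hits in the *rad50S* and *hop1-loop2* libraries, 84.3% in *hop1-loop2 pch2* replicate 1 and 63.2% in its replicate 2. That last library also had the fewest hits and stands apart from the other 5. Results of *hop1-loop2 pch2* are therefore given per library and also relative to the hotspots beyond 50 kb on the same chromosomes, a ratio in which hits outside hotspots do not enter. The part of the shallow library in the unscaled results was not tested beyond the fits without it.

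Signal near centromeres was higher in *hop1-loop2* than in *rad50S*, and higher again in *hop1-loop2 pch2*. Summed over both sides, the excess over *rad50S* lay within 30 kb of the positions. Farther out *hop1-loop2* was lower, and the direction for *hop1-loop2 pch2* depended on the scaling. On the side below the positions, *hop1-loop2* exceeded *rad50S* without overlap only within 10 kb, and it was lower from 20 to 30 kb. The 278 hotspots together held 60894 and 57373 HpM in *rad50S*, 68631 and 79577 HpM in *hop1-loop2* and 112488 and 83276 HpM in *hop1-loop2 pch2*. No library of one genotype overlapped those of another, and the ratios of the means were 1.25 ± 0.14 for *hop1-loop2* over *rad50S*, 1.66 ± 0.36 for *hop1-loop2 pch2* over *rad50S* and 1.32 ± 0.31 for *hop1-loop2 pch2* over *hop1-loop2* (SD, n = 2). With 2 libraries against 2, an exact two-sided permutation test cannot go below p = 0.333, which each of the 3 comparisons reached.

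Measured against the 2162 hotspots beyond 50 kb, the separation was clearer. A hotspot near a centromere had on average 0.864 and 0.823 times the signal of a distant one in *rad50S*. The same ratio was 0.947 and 1.12 in *hop1-loop2*. In *hop1-loop2 pch2* it was 1.79 and 1.76, so its libraries, which differ in depth and in hits outside hotspots, gave nearly the same value. Centromere-near hotspots thus went from below the average of distant hotspots to well above it in relative terms.

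The difference varied with distance. Within 10 kb, 57 hotspots held 4978 and 4611 HpM in *rad50S*, 11504 and 15074 HpM in *hop1-loop2* and 23391 and 17998 HpM in *hop1-loop2 pch2*, ratios to *rad50S* of 2.77 ± 0.55 and 4.32 ± 0.83 (SD, n = 2). Of the 57, 22 exceeded the threshold in the *hop1-loop2* mean alone, so the calling rule favours a rise there. Over the 34 that exceeded it in both *rad50S* and *hop1-loop2*, the ratios were 2.27 ± 0.48 and 3.59 ± 0.62. From 10 to 20 kb, the ratios to *rad50S* were 1.72 ± 0.31 and 2.65 ± 0.64 over 51 hotspots. From 20 to 30 kb, they were 1.58 ± 0.16 and 1.94 ± 0.44 over 69 hotspots. In all 3 steps both mutant genotypes lay above *rad50S* in every library.

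Beyond 30 kb *hop1-loop2* was lower than *rad50S*. From 30 to 40 kb, 54 hotspots held 15197 and 15212 HpM in *rad50S* and 9515 and 10742 HpM in *hop1-loop2*, a ratio of 0.666 ± 0.057. From 40 to 50 kb, 47 hotspots held 15161 and 14855 HpM in *rad50S* and 10965 and 11220 HpM in *hop1-loop2*, a ratio of 0.739 ± 0.016. In unscaled HpM *hop1-loop2 pch2* was below *rad50S* in these steps too, at 0.795 ± 0.17 and 0.723 ± 0.17, but from 30 to 40 kb this direction turned when every position was moved by 5 kb, to 1.21 with lower and 1.07 with higher positions, and when all hits rather than hotspot hits were summed, to 1.01. Relative to the distant hotspots, *hop1-loop2 pch2* was at 1.01 ± 0.022 of *rad50S* from 30 to 40 kb, where the libraries overlapped (1.15 and 1.11 against 1.11 and 1.12), and at 0.918 ± 0.030 from 40 to 50 kb. Over hotspots above the threshold in both *rad50S* and *hop1-loop2*, the relative ratio from 30 to 40 kb was 1.08 ± 0.021, without overlap. From 40 to 50 kb it was then 0.982 ± 0.035 and the libraries overlapped. With any 1 of the 10 centromeres left out, the ratio of *hop1-loop2* to *rad50S* stayed between 2.27 and 3.14 within 10 kb, the lowest without chromosome IV, and between 0.581 and 0.747 from 30 to 40 kb. From 20 to 30 kb it stayed between 1.35 and 2.07, the lowest without chromosome VII.

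In *rad50S* itself the lowest step lay just below the positions. Hotspots 0 to 10 kb below the position held 1511 and 1350 HpM, against 3467 and 3261 HpM in the 10 kb above it, and 9279 and 9194 HpM from 30 to 40 kb below. In *hop1-loop2* the highest step was 20 to 30 kb above the positions, with 15123 and 16456 HpM against 5097 and 4446 HpM in *rad50S*, a ratio of 3.31 ± 0.38. The same distance below the positions went the other way, with 5347 and 6129 HpM against 9179 and 8493 HpM, a ratio of 0.649 ± 0.072. The profile was therefore not symmetric around the positions as given.

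**Figure D1:**
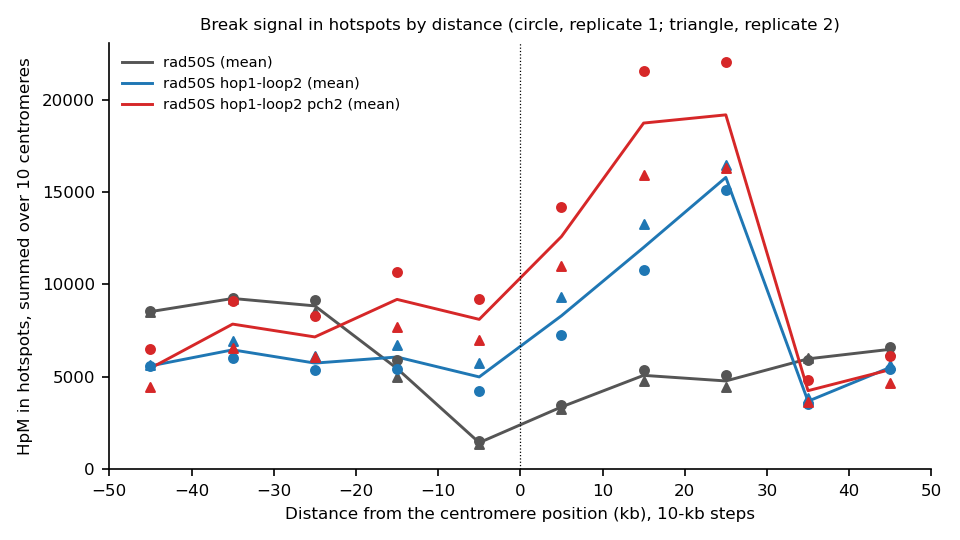
Summed HpM in hotspots (y axis) by signed distance from the centromere position in 10-kb steps (x axis), over all 10 centromeres. Lines are group means and symbols the 2 libraries of each genotype. Between 10 kb below and 30 kb above the positions every mutant library lies above the *rad50S* libraries, and 30 to 40 kb above them every mutant library lies below.

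Individual hotspots were tested with limma on log2(HpM + 1), with Benjamini-Hochberg adjustment over all 3569 hotspots. Between *hop1-loop2* and *rad50S*, 89 of the 278 hotspots fell and 127 rose at an adjusted p below 0.05, or 32.0% and 45.7%. Over all hotspots 43.2% fell and 34.2% rose, with the larger share on the other side. The median change on the log2 scale was 0.23 in the set and -0.16 over all hotspots.

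By distance, 3 hotspots fell and 40 rose of the 57 within 10 kb, with a median change of 2.02 on the log2 scale. Of the 51 from 10 to 20 kb, 10 fell and 30 rose. Of the 69 from 20 to 30 kb, 24 fell and 35 rose. From 30 to 40 kb 26 of 54 fell and 12 rose, and from 40 to 50 kb 26 of 47 fell and 10 rose.

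Some of these hotspots met the calling rule only through the genotype in which they were high and so had to differ. Of the 278, 203 exceeded the threshold in both genotype means, 43 in *hop1-loop2* alone and 32 in *rad50S* alone. Of the 43, 22 lay within 10 kb. Among the 203, 28.6% fell and 42.9% rose, where 39.4% and 33.3% did so of the 2811 hotspots of the genome that exceeded the threshold in both. Among the 34 hotspots within 10 kb that exceeded it in both genotypes, 2 fell and 18 rose, with a median change of 0.84. Among the corresponding 38 hotspots from 40 to 50 kb, 18 fell and 10 rose. When hotspots were called on the *rad50S* libraries alone, 39.8% of the 251 centromere-near hotspots fell and 35.5% rose, so the balance within the set turned, where 50.4% and 26.4% did so of all 3485 hotspots called in this way. For hotspots named below that exceeded the threshold in 1 genotype alone, values and the size of the change are given as a description, with no test.

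**Figure D2:**
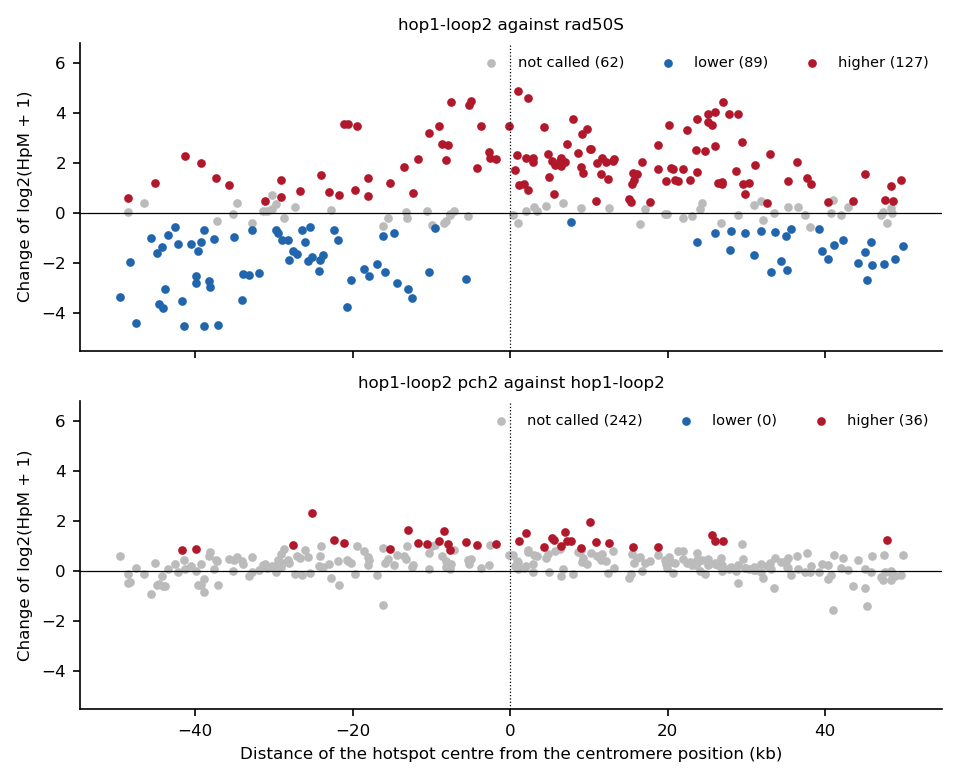
Change of each of the 278 hotspots on log2(HpM + 1) (y axis) against the signed distance of its centre from the centromere position (x axis), for *hop1-loop2* against *rad50S* (top) and *hop1-loop2 pch2* against *hop1-loop2* (bottom). Red and blue mark limma adjusted p below 0.05. In the top plot 127 hotspots are higher and 89 lower, with few lower ones near 0 kb, and in the bottom plot 36 are higher and 0 lower.

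The same regions were read without any hotspot caller in 10-kb tiles that count every hit. Of the 100 tiles within 50 kb, 37 fell and 47 rose in *hop1-loop2* against *rad50S*, where 50.4% of the 1194 tiles of the genome fell and 32.4% rose. Of the 20 tiles that touch a position, 1 fell and 15 rose, with a median change of 1.19 on the log2(HpM + 10) scale against -0.32 over all tiles. Of the 20 tiles at 20 to 30 kb, 9 fell and 9 rose, with a median change of -0.17. Of the 20 tiles at 40 to 50 kb, 11 fell and 6 rose. The 1 tile beside a position that fell was the lower-coordinate tile of chromosome XII, at -1.62, singled out after its values were seen.

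**Figure D3:**
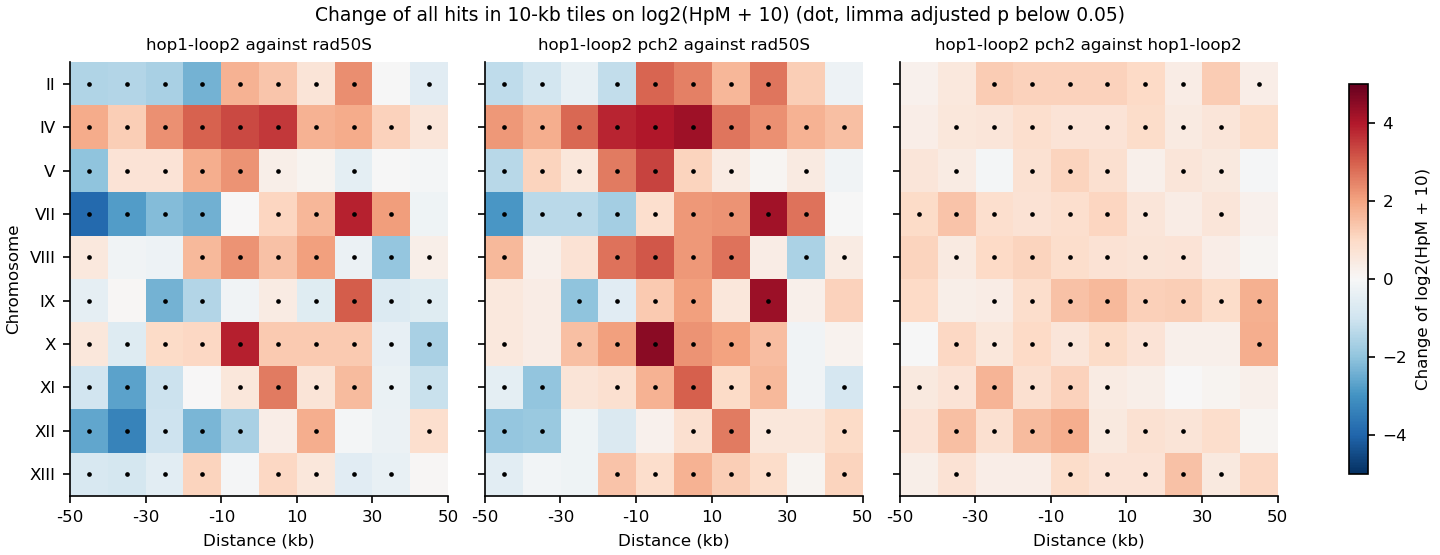
Change of all hits in 10-kb tiles on log2(HpM + 10) (colour) for each chromosome (rows) and signed distance (x axis, kb), in the 3 comparisons named above the panels. A dot marks a limma adjusted p below 0.05. Chromosome IV is higher in all 10 tiles of the left panel, while chromosome VII passes from -3.88 at 50 to 40 kb below the position to 3.83 at 20 to 30 kb above it.

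The 10 centromeres differed widely from each other. Summed over each window, *hop1-loop2* lay above *rad50S* without overlap at chromosomes IV, V, VIII, X and XI, below it at IX and XII, and overlapped it at II, VII and XIII. The ratios ran from 0.615 ± 0.096 at IX to 5.16 ± 0.67 at IV. At VIII and XI the excess rested on the strongest site of the window. The other hotspots together were lower in *hop1-loop2* than in *rad50S* at VIII, without overlap, and overlapped at XI. At II and VII, an even total held opposite differences on the 2 sides. The counts per centromere below stand beside 39.4% lower and 33.3% higher of the 2811 hotspots of the genome that exceeded the threshold in both genotypes.

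**Figure D4:**
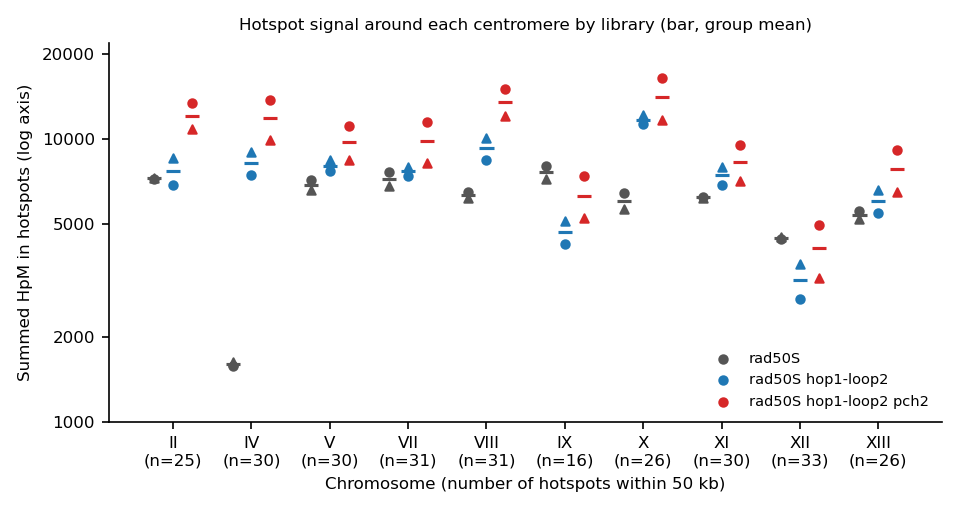
Summed HpM of the hotspots within 50 kb of each centromere (log axis), with symbols for the libraries (circle, replicate 1; triangle, replicate 2) and bars for the means of the 3 genotypes. Chromosome IV goes from 1570 and 1624 HpM in *rad50S* to 7497 and 8990 HpM in *hop1-loop2*, and chromosomes IX and XII are lower in *hop1-loop2* than in *rad50S*.

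Chromosome IV had the lowest sum in *rad50S* and the largest ratio. Its 30 hotspots held 1570 and 1624 HpM in *rad50S*, 7497 and 8990 HpM in *hop1-loop2* and 13807 and 9961 HpM in *hop1-loop2 pch2*. Of the 30, 11 exceeded the threshold in *hop1-loop2* alone. Of the other 19, which exceeded it in both genotypes, 16 rose and 0 fell by limma, and over all 30 the number lower was also 0 at an unadjusted p below 0.05, by edgeR and by DESeq2. Both sides took part, with ratios of 5.86 below the position and 4.18 above it.

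The nearest hotspot of chromosome IV, IV:463730-464056 in the SK1 assembly of the files, was also its strongest. It lay 0.107 kb below the position and had 105 and 116 HpM in *rad50S*, 1011 and 1516 HpM in *hop1-loop2* and 2077 and 1804 HpM in *hop1-loop2 pch2*. The increase in *hop1-loop2* was 3.48 ± 0.20 on the log2 scale (SE, limma adjusted p = 1.78e-06). Next to it lay the 2 largest increases of the set, both in the set through *hop1-loop2* alone.

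At IV:464920-465141, 1.03 kb above the position, signal went from 21.9 and 19.9 HpM to 588 and 690 HpM and to 1000 and 679 HpM in *hop1-loop2 pch2*, a difference of 4.87 ± 0.16 (SE) on the log2 scale between *hop1-loop2* and *rad50S*. At IV:466110-466270, 2.19 kb above it, signal went from 4.79 and 5.28 HpM to 134 and 159 HpM and to 302 and 229 HpM, a difference of 4.61 ± 0.20. All 3 neighbouring sites were low in *rad50S* and higher in each of the 4 mutant libraries.

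Chromosome X had the next largest ratio, 1.93 ± 0.20 (SD, n = 2). Its 26 hotspots held 6452 and 5667 HpM in *rad50S*, 11297 and 12141 HpM in *hop1-loop2* and 16495 and 11655 HpM in *hop1-loop2 pch2*. Of the 22 that exceeded the threshold in both genotypes, 17 rose and 3 fell. No hotspot was called in the 13.9 kb that include the position, the widest empty stretch that held a position among the 10.

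At the edge of that stretch lay X:445823-446280, 4.95 kb below the position, the third of the 3 largest increases and also in the set through *hop1-loop2* alone. It had 32.0 and 29.0 HpM in *rad50S*, 628 and 778 HpM in *hop1-loop2* and 1200 and 783 HpM in *hop1-loop2 pch2*, a difference of 4.48 ± 0.16 on the log2 scale between *hop1-loop2* and *rad50S*. The strongest hotspot of the window, X:401829-402973 at its far edge, moved much less, from 2314 and 1908 HpM to 3268 and 3094 HpM, or 0.60 ± 0.15 on the log2 scale (limma adjusted p = 0.00518). That call was lost without *hop1-loop2* replicate 1, where the change was 0.56.

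At chromosome VIII a single site carried much of the window. VIII:118112-119176, 11.6 kb above the position, had 1242 and 779 HpM in *rad50S*, 4061 and 5002 HpM in *hop1-loop2* and 7807 and 6576 HpM in *hop1-loop2 pch2*. Its share of the window's hotspot signal was 48.8% in *hop1-loop2* and 53.0% in *hop1-loop2 pch2*, while in *rad50S* the strongest site of the window, whichever it was, held 22.8%. It was higher by 2.19 ± 0.22 on the log2 scale in *hop1-loop2*. The 31 hotspots summed to 6498 and 6192 HpM, 8455 and 10122 HpM, and 15078 and 12037 HpM in the 3 genotypes. Of the 23 that exceeded the threshold in both genotypes, 7 fell and 8 rose in *hop1-loop2*, near the shares over the genome. With VIII:118112-119176 taken out, the others together held less in both *hop1-loop2* libraries than in either *rad50S* library. The nearest hotspot, VIII:104206-104413, which exceeded the threshold in *hop1-loop2* alone, had 25.5 and 18.7 HpM in *rad50S* and 107 and 137 HpM in *hop1-loop2*, a difference of 2.41 ± 0.21 on the log2 scale.

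Chromosome VII had opposite differences on its sides. The 13 hotspots below the position held 6249 and 5609 HpM in *rad50S* and 833 and 1101 HpM in *hop1-loop2*, a ratio of 0.163. Of the 10 that exceeded the threshold in both genotypes 8 fell, and of the 13 by limma 0 rose, also at an unadjusted p below 0.05, by edgeR and by DESeq2. The 18 above it held 1395 and 1199 HpM in *rad50S* and 6581 and 6880 HpM in *hop1-loop2*, a ratio of 5.19, and of the 12 that exceeded the threshold in both genotypes 8 rose and 1 fell. The window total hid this, at 7644 and 6807 HpM against 7414 and 7981 HpM.

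The strongest hotspot of chromosome VII, VII:532579-533266 at 28.9 kb above the position, had 204 and 153 HpM in *rad50S*, 2648 and 2761 HpM in *hop1-loop2* and 3783 and 2702 HpM in *hop1-loop2 pch2*. It was higher by 3.93 ± 0.17 on the log2 scale in *hop1-loop2*, where it held 35.1% of the window's signal. In *rad50S* another site was the strongest, with 22.6%. The nearest one, VII:504261-504436, had 79.3 and 90.9 HpM in *rad50S* and 65.3 and 98.4 HpM in *hop1-loop2* and was not called (limma adjusted p = 0.743). The border between the sides lay close to the position: the tile just below it changed by 0.01 and the next tile down fell by 2.39 on the log2 scale.

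Chromosomes II and XI had the same arrangement in their sums. Below the position of II, 12 hotspots held 3101 and 3408 HpM in *rad50S* and 1197 and 1653 HpM in *hop1-loop2*. Of the 8 that exceeded the threshold in both genotypes, 6 fell and 1 rose. Above it, 13 hotspots held 4126 and 3910 HpM and 5713 and 6906 HpM, and of the 12 that exceeded it in both genotypes 7 rose and 2 fell. The strongest hotspot of II, II:277324-277896 at 23.6 kb above the position, went from 342 and 302 HpM to 1646 and 2036 HpM, a gain of 2.51 ± 0.16 on the log2 scale (limma adjusted p = 2.46e-06). The nearest, II:255025-255248, went from 142 and 123 HpM to 257 and 319 HpM, a gain of 1.11 ± 0.17 (limma adjusted p = 0.000298).

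At XI the 11 hotspots below the position had a ratio of 0.427 and the 19 above it a ratio of 1.94. Of the 11, 5 exceeded the threshold in *rad50S* alone and so had to be lower. Of the 5 that exceeded it in both genotypes, 1 was called, as lower. The lower side of XI is thus seen in the sum and not in these counts. Above the position, of the 15 that exceeded it in both genotypes, 7 rose and 3 fell. The strongest hotspot of XI, XI:474181-475117 at 20.6 kb above the position, went from 735 and 562 HpM to 2123 and 2278 HpM. That was a difference of 1.77 ± 0.16 on the log2 scale. In *rad50S* another site was the strongest, with 30.4% of the window. The nearest, XI:454498-454749, went from 108 and 124 HpM to 310 and 463 HpM, a gain of 1.70 ± 0.20 (limma adjusted p = 7.74e-05). On II, VII and XI the strongest sites in *hop1-loop2* thus lay 20 to 30 kb above the position.

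At chromosome XII the lower signal reached right up to the position. The 15 hotspots below it held 2949 and 3179 HpM in *rad50S* and 663 and 870 HpM in *hop1-loop2*, a ratio of 0.25. Of these, 10 exceeded the threshold in *rad50S* alone, and the other 5, which exceeded it in both genotypes, all fell by limma, edgeR and DESeq2. Without *hop1-loop2* replicate 1, 4 of the 5 were called. The same side held the 3 largest decreases of the set, next to each other and each in the set through *rad50S* alone.

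XII:114940-115139 went from 381 and 307 HpM to 15.6 and 12.8 HpM, a change of -4.50 ± 0.18 on the log2 scale. XII:112242-112809 went from 588 and 825 HpM to 30.1 and 29.8 HpM, a change of -4.49 ± 0.19. XII:116766-116965 went from 188 and 216 HpM to 8.92 and 7.26 HpM, a change of -4.48 ± 0.19. Their centres lay 39.0, 41.5 and 37.1 kb below the position, and they stayed low in *hop1-loop2 pch2*, with 4.87 to 43.4 HpM at the first 2 and 12.2 and 1.95 HpM at the third, where the shallow library had under 3 hits.

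Above the position of XII, 18 hotspots had a ratio of 1.69, and of the 15 that exceeded the threshold in both genotypes 8 rose by limma. None of these 15 fell by limma, edgeR or DESeq2 or at an unadjusted p below 0.05, but 2 did without *rad50S* replicate 2 and 1 without *hop1-loop2* replicate 2. The strongest, XII:160431-160853, had 531 and 518 HpM in *rad50S* and 518 and 924 HpM in *hop1-loop2* and was not called (limma adjusted p = 0.165). The nearest, XII:154928-155005, had 33.8 and 24.2 HpM and 17.5 and 25.5 HpM and was not called either (limma adjusted p = 0.168). The lower total of the XII window turned to a ratio of 1.43 when only 20 kb on each side were counted, and to 1.12 over hotspots above the threshold in both genotypes.

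**Figure D5:**
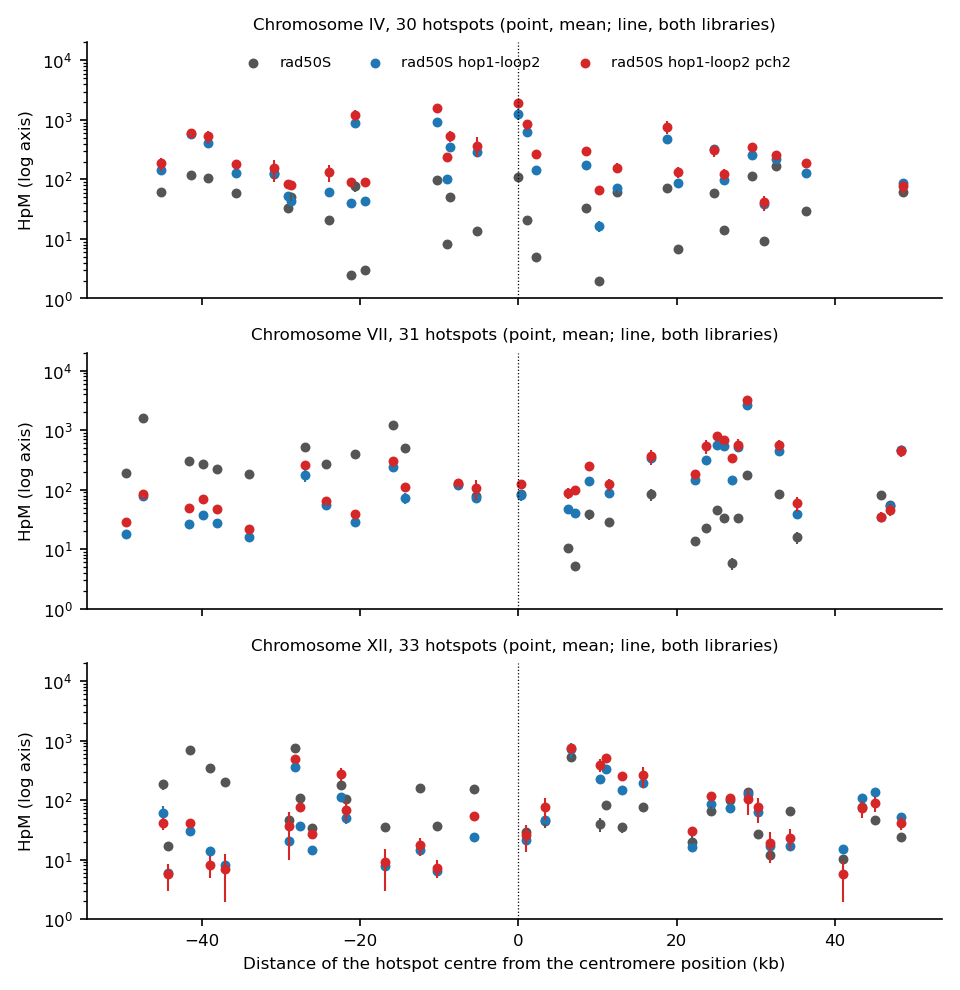
HpM of every hotspot (log axis) against signed distance from the centromere position on chromosomes IV, VII and XII, with points for group means and lines joining the 2 libraries (values below 1 HpM are drawn at 1). On IV most mutant points lie above *rad50S* on both sides, on VII most lie below it on the left and above it on the right, and on XII the 3 largest decreases stand about 40 kb to the left.

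Chromosome IX had the highest mean per hotspot in *rad50S* and was lower in *hop1-loop2*. Its 16 hotspots held 8071 and 7216 HpM in *rad50S*, 4250 and 5151 HpM in *hop1-loop2* and 7380 and 5249 HpM in *hop1-loop2 pch2*. Of the 13 that exceeded the threshold in both genotypes, 5 were called, all lower. The strongest hotspot over the 4 libraries, IX:319057-320184 at 31.4 kb below the position, was not called (limma adjusted p = 0.635). It had 2885 and 2597 HpM in *rad50S* and 2608 and 3230 HpM in *hop1-loop2*, where it held 62.1% of the window. In *rad50S* another site was stronger and held 46.6%. The nearest, IX:352893-353028, had 40.5 and 50.5 HpM in *rad50S* and 38.9 and 59.6 HpM in *hop1-loop2* (limma adjusted p = 0.747). Some tiles were singled out after their values were seen. The tile 30 to 20 kb below the position fell from 2777 and 2598 HpM to 467 and 552 HpM. The next, 20 to 10 kb below, fell from 1977 and 1468 HpM to 592 and 619 HpM. Against this, the tile 20 to 30 kb above the position rose from 71.4 and 76.8 HpM to 618 and 746 HpM.

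At chromosomes V and XIII the window ratios were 1.17 ± 0.10 and 1.12 ± 0.16 (SD, n = 2). At V, 30 hotspots held 7167 and 6611 HpM in *rad50S* and 7694 and 8414 HpM in *hop1-loop2*, and of the 23 that exceeded the threshold in both genotypes 8 fell and 9 rose. Its strongest hotspot, V:214018-214659 at 40.3 kb above the position, had 1158 and 912 HpM and 1446 and 1366 HpM, a change of 0.45 ± 0.16 on the log2 scale (limma adjusted p = 0.0261). That call was lost without *rad50S* replicate 2, at 0.28, and without *hop1-loop2* replicate 1 or 2, at 0.41 and 0.49. Its nearest hotspot, V:175688-175791, exceeded the threshold in *hop1-loop2* alone and had 20.2 and 17.6 HpM in *rad50S* and 40.5 and 44.8 HpM in *hop1-loop2*, a difference of 1.14 ± 0.19 on the log2 scale.

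At XIII, 26 hotspots held 5570 and 5232 HpM in *rad50S* and 5472 and 6625 HpM in *hop1-loop2*, and of the 21 that exceeded the threshold in both genotypes 9 fell and 6 rose. These counts at V and XIII were near the shares over the genome, 39.4% lower and 33.3% higher. The strongest, XIII:235711-236129 at 18.1 kb below the position, went from 586 and 468 HpM to 1213 and 1558 HpM. That was a difference of 1.39 ± 0.18 on the log2 scale. The nearest, XIII:254643-255045, exceeded it in *hop1-loop2* alone, with 42.7 and 30.2 HpM in *rad50S* and 176 and 194 HpM in *hop1-loop2*, a difference of 2.33 ± 0.20. Of the 10 nearest hotspots, those of V, VIII, X and XIII were in the set through *hop1-loop2* alone. Of the other 6, those of II, IV and XI rose and those of VII, IX and XII were not called.

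With *pch2* added to *hop1-loop2*, the relative signal was higher at all 10 centromeres. Relative to the distant hotspots, the windows of *hop1-loop2 pch2* were 1.46 times (XI) to 2.06 times (II) those of *hop1-loop2*, with no overlap between libraries at any of the 10. The denominator is shared by the 10 windows, so they are not 10 independent results. In unscaled HpM, *hop1-loop2 pch2* lay above *hop1-loop2* without overlap at II, IV, V, VII, VIII and IX and overlapped it at X, XI, XII and XIII.

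Relative to distant hotspots, the ratio to *hop1-loop2* was 2.03 ± 0.42 within 10 kb and 1.27 ± 0.056 from 40 to 50 kb (SD, n = 2). In unscaled HpM it was 1.56 ± 0.41 within 10 kb, without overlap, and 0.978 ± 0.23 from 40 to 50 kb, where the libraries overlapped, so the direction there turned with the scaling. Relative to distant hotspots, the hotspots within 10 kb went from 0.774 and 1.03 in *hop1-loop2* to 1.82 and 1.86 in *hop1-loop2 pch2*, against 0.345 and 0.323 in *rad50S*. The 34 of these that exceeded the threshold in both *rad50S* and *hop1-loop2* went from 0.945 and 1.30 to 2.27 and 2.38. They had 0.519 and 0.492 in *rad50S*. Hotspots from 10 to 20 kb went from 1.22 and 1.53 to 2.80 and 2.73. Those from 40 to 50 kb went from 0.894 and 0.933 to 1.19 and 1.14, still below the 1.27 and 1.26 of *rad50S*.

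Hotspot by hotspot, 36 of the 278 rose and 0 fell in *hop1-loop2 pch2* against *hop1-loop2*, by limma in a fit of all 6 libraries, or 12.9% higher, where 2.8% of all hotspots rose and 11.9% fell. At an unadjusted p below 0.05, 3 fell, and edgeR and DESeq2, which scale the libraries to each other, called 134 and 149 higher and 0 lower. Of the 36, 17 lay within 10 kb and 9 from 10 to 20 kb. The median change was 0.32 on the log2 scale in the set and -0.30 over all hotspots.

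The count of 36 depended on single libraries and on scaling. Without *hop1-loop2* replicate 1 and without its replicate 2, 0 hotspots of the set were called higher by limma, with 30 and 59 higher at an unadjusted p below 0.05. Without *hop1-loop2 pch2* replicate 1, 20.1% were higher and 10.4% lower, and without its replicate 2, 38.5% were higher. Rescaling to hits in hotspots gave 132 higher and 0 lower. Over all hotspots the share of higher calls among all calls was 19.1%, and 58.3% after centring on the median.

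The named increases of this comparison were small sites close to the positions. VIII:113863-114054, 6.96 kb above the position, had 52.5 and 33.9 HpM in *rad50S*, 169 and 180 HpM in *hop1-loop2* and 556 and 488 HpM in *hop1-loop2 pch2*, a gain of 1.57 ± 0.26 on the log2 scale over *hop1-loop2* (limma adjusted p = 0.00912). IV:474157-474182, 10.2 kb above the position, was in the set through *hop1-loop2* alone. It had 2.20 and 1.72 HpM, 13.1 and 20.2 HpM, and 63.1 and 71.1 HpM, a difference of 1.98 ± 0.39 over *hop1-loop2* on the log2 scale. Among the nearest hotspots, those of II and IX passed as well, at 1.22 ± 0.22 and 1.52 ± 0.28 (limma adjusted p = 0.0119 and 0.0130), II with 689 and 646 HpM and IX with 150 and 131 HpM in *hop1-loop2 pch2*. The calls at VIII, II and IX were lost when either *hop1-loop2* library was left out, and with each strand position counted once.

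In tiles, 70 of the 100 rose and 0 fell in *hop1-loop2 pch2* against *hop1-loop2* by limma, also 0 at an unadjusted p below 0.05, where 21% of all tiles rose and 14.7% fell. All 20 tiles that touch a position rose, with a median change of 0.90 against 0.25 over all tiles. Tiles include hits outside hotspots, which within the windows were 21.4 and 38.8 HpM per kb in *hop1-loop2 pch2* against 10.5 and 12.0 HpM per kb in *hop1-loop2*. Without *hop1-loop2* replicate 1, 23% of the 100 tiles rose, and without its replicate 2, 42%.

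Against *rad50S*, *hop1-loop2 pch2* had 131 of the 278 hotspots higher and 62 lower, or 47.1% and 22.3%, where 21.3% of all hotspots rose and 43.9% fell. The share of higher calls among all calls was 67.9%, and 78.6% when values were centred on the median change of -0.55 over all hotspots. Over all hotspots the same centring moved that share from 32.7% to 51.9%. Within 10 kb, 48 of 57 rose and 1 fell, and from 40 to 50 kb 5 of 47 rose and 21 fell. Of the 57, 22 were in the set through *hop1-loop2* alone. Among the 34 within 10 kb that exceeded the threshold in both *rad50S* and *hop1-loop2*, 26 rose and 0 fell by limma, also 0 at an unadjusted p below 0.05, by edgeR and by DESeq2. Without *hop1-loop2 pch2* replicate 1, 1 of the 34 fell. Among the corresponding 38 from 40 to 50 kb, 5 rose and 15 fell. Of the 2811 hotspots of the genome that exceeded the threshold in both, 19.2% rose and 42.0% fell, so the lower calls from 40 to 50 kb were near that share. In tiles, 57 of the 100 rose and 17 fell, where 29.6% of all tiles rose and 33.2% fell.

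The fold over *rad50S* in *hop1-loop2 pch2* was again highest at IV, at 7.44 ± 1.7 (SD, n = 2), followed by X at 2.32 ± 0.60 and VIII at 2.14 ± 0.35. At IX and XII the libraries overlapped those of *rad50S*, with 0.826 and 0.917. Relative to the distant hotspots these turned to 1.05 ± 0.086, with overlap, and 1.16 ± 0.12, without overlap. Both comparisons share the *rad50S* libraries. At VII the window lay above *rad50S* at 1.37, but at 0.783 when 20 kb on each side were counted and at 0.985 with hotspots called on *rad50S* alone.

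The form of the hotspots was measured too. Their median length was 201.5 bp, ranging from 26 to 1659 bp, against 206.5 bp for distant hotspots on the same chromosomes. The median share of hits on the Watson strand was 48.5 to 50.0% in the 6 libraries. The peak of the smoothed signal in *hop1-loop2* lay within 20 bp of that in *rad50S* at 92.1% of the 278, against 88.6% of the distant hotspots.

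Within hotspots the positions of hits were compared as well. In 20-bp bins, over the 105 hotspots with at least 500 hits in each of the 4 *rad50S* and *hop1-loop2* libraries, the median overlap of hit distributions was 92.7% between *rad50S* replicates and 93.3% between *hop1-loop2* replicates. Between these genotypes it was 88.0 to 91.2%. Overlaps with *hop1-loop2 pch2* were 78.2 to 88.1%, but those libraries are shallower and their own overlap was 83.2%.

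At the limits of the rule, the 11 hotspots centred 48 to 50 kb away had median levels of 257, 121 and 106 HpM in *rad50S*, *hop1-loop2* and *hop1-loop2 pch2*, and the 11 centred 50 to 52 kb away had 90.2, 64.0 and 62.3 HpM. The weakest peak in the set reached 0.203 HpM per bp, at IV:474157-474182.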

How the data were processed

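The authors mapped CC-seq ends with TermMapper, which runs Bowtie2, on an SK1 assembly (ASM205788v1) joined with 2-micron, lambda and human sequence. Versions and the treatment of duplicate reads are not given in the sources used here. The deposited values are hits per 1000000 (HpM, an RPM unit) per position and strand over the 16 nuclear chromosomes. Whole reads were recovered from the deposited RPM values (100% whole, tolerance 0.001) and served only for count models. The groups were taken from sample titles. The hotspots, centromere positions and lists were chosen with earlier results of these data known.

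Hotspots were called as stated above, and their HpM summed per library. limma 3.58.1 with a trend was fitted on log2(HpM + 1), using 4 libraries for *hop1-loop2* against *rad50S* and all 6 for comparisons with *hop1-loop2 pch2*. Tiles of 10 kb were anchored on the positions and tested on log2(HpM + 10). Count models of the recovered reads (edgeR 4.0.16, DESeq2 1.42.0) were alternatives, and the closing section gives their effect and that of other thresholds, pseudocounts, windows and positions. Ratio SDs combine the relative SDs of both means. Scripts were tested on simulated data.

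Named hotspots are the nearest and the strongest (mean of 4 libraries) at each centromere, and the 3 largest decreases and increases (*hop1-loop2* against *rad50S*) and up to 2 of each (*hop1-loop2 pch2* against *hop1-loop2*) with adjusted p below 0.05, at least 50 HpM in 1 genotype and no overlap between libraries. None fell in the last comparison. The replicates differed by more than sampling noise (chi-square per degree of freedom 7.05 to 40.8). Counting precision is limited by depth: 3 hits correspond to 0.376 to 0.478 HpM in the 4 deeper libraries, 0.830 and 2.92 HpM in *hop1-loop2 pch2*. ChIP-seq counts per whole chromosome were not used, since they hold no positions. The reference at hand is not of the SK1 assembly, so no genes or sequences are given.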

Additional observations from a re-analysis of the deposited data

How the results depend on the processing

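The comparison of *hop1-loop2* with *rad50S* kept both percentages within 1.5 times under other pseudocounts, a filter at 10 HpM, other thresholds, count models, moved positions and single libraries left out. Narrower windows changed them by their construction. With 30 kb on each side 20.9% fell and the summed ratio was 1.83, and 11.3% fell in *hop1-loop2 pch2* against *rad50S*, where the ratio was 2.59. With 20 kb, 12.0% fell at a ratio of 2.05, and in *hop1-loop2 pch2* 8.33% fell, 72.2% rose and the ratio was 3.17. The summed ratio of *hop1-loop2* to *rad50S* was 1.11 with hotspots called on *rad50S* alone, 1.09 with each strand position counted once, and 1.14 without chromosome IV.

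The comparison of *hop1-loop2 pch2* with *hop1-loop2* varied most. The percentage of hotspots higher was 12.9 as reported, 48.2 by edgeR, 53.6 by DESeq2, 23.0 after centring, 47.5 after rescaling to hotspot hits, 24.1 within 20 kb and 0 with each strand position counted once (67 at an unadjusted p below 0.05). With each library left out it ran from 0 to 38.5%, the percentage lower from 0 to 10.4%, and the percentage of tiles higher from 23 to 76%. The lowest were without a *hop1-loop2* library, where the remaining one is assumed to vary like the other groups.

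Among the directions that turned were these: in the set, *hop1-loop2* against *rad50S*, more hotspots fell (39.8%) than rose (35.5%) with calling on *rad50S* alone; from 30 to 40 kb, *hop1-loop2 pch2* against *rad50S*, to 1.21 and 1.07 with positions 5 kb lower and higher and to 1.01 with all hits; at VII, the same comparison, to 0.985 with hotspots called on *rad50S* and 0.783 within 20 kb; at XII, *hop1-loop2* against *rad50S*, to 1.43 within 20 kb and 1.12 over hotspots above the threshold in both genotypes. Relative to the distant hotspots, *hop1-loop2 pch2* against *rad50S* turned from 0.826 to 1.05 at IX, from 0.917 to 1.16 at XII and from 0.795 to 1.01 from 30 to 40 kb, and against *hop1-loop2* from 0.978 to 1.27 from 40 to 50 kb. The cause was not tested. The alternatives of hotspots above the threshold in both genotypes and of a centromere left out were chosen after seeing the data.

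Same-numbered libraries share a number only: the correlations of their deviations were 0.31, 0.086 and 0.11. With a replicate block, 33.5% of hotspots fell and 46.4% rose in *hop1-loop2* against *rad50S*, 23.0% and 47.8% in *hop1-loop2 pch2* against *rad50S*, and 0% and 16.5% against *hop1-loop2*.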

Other observations

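Signal between hotspots in the windows also differed by genotype. Outside hotspots, the 10 windows held 8.92 and 10.1 HpM per kb in *rad50S*, 10.5 and 12.0 HpM per kb in *hop1-loop2* and 21.4 and 38.8 HpM per kb in *hop1-loop2 pch2*. Over the whole genome outside hotspots the values were 9.52 and 10.9, 9.57 and 9.70, and 14.1 and 33.1 HpM per kb. In *rad50S* the windows were thus slightly below the genome in both libraries, and in the other 4 libraries they were above it.

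The share of a window's hotspot signal in its strongest site differed among centromeres and genotypes. In *rad50S* it ran from 10.6% at IV to 46.6% at IX. In *hop1-loop2* it ran from 15.3% at IV to 62.1% at IX, and it was higher than in *rad50S* at 8 of the 10 windows, the exceptions being X and XI.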
